A study of Mus musculus with 74 samples.

Results

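Myelin is the lipid-rich membrane that oligodendrocytes wrap around axons, and a small set of proteins that hardly any other cell of the brain makes gives it its structure. The genes described here are 9 of these: Mbp, Mobp, Mog, Mag, Cnp, Cldn11, Mal, Opalin and Ermn. They were chosen by symbol from a deposited table of 49912 genes, and all 9 were found in it, once each. Myelin genes are switched on together late in the oligodendrocyte lineage, under transcription factors of the SOX family and MYRF. Microglia, the macrophages of the brain, take up myelin debris.

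Mice without Trem2 (-/-), with 1 working copy (+/-) or wild type (+/+) ate chow with 0.2% cuprizone, or control chow, for 5 or 12 weeks. Trem2 encodes a receptor of microglia for lipids and debris. Cuprizone binds copper, and mature oligodendrocytes are sensitive to cuprizone, so that they die and axons lose their myelin. The study used 5 weeks as acute and 12 weeks as chronic demyelination. Whole brains were dissociated and live cells sorted by Cd11b: the positive ones are called microglia here, and everything else, pooled, nonmicroglia. The pool holds oligodendrocytes with astrocytes, endothelial, ependymal and other cells. The knockout is carried by the whole animal, with no cell type-specific driver stated, and the age of the mice at the start of feeding is not given in the sources used here.

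Both fractions of 37 animals gave 74 libraries of 3' tags, which read the end of each polyadenylated transcript. Each fraction had 12 groups of 3 animals, except 4 in each +/- group at 12 weeks and 2 in the +/+ group on control chow at 12 weeks, and each group held 1 male. Microglia libraries held 1043961 to 3945694 counts (median 1782314) and nonmicroglia libraries 1255465 to 3441041 (median 1705753). Levels are given in CPM, the count of a gene divided by the total of its library and scaled to the same total in every library, which needs no correction for length with 3' tags but still depends on how well each 3' end is captured. Trem2 itself, whose deleted part is not given relative to the 3' tags, stood at 109 to 250.4 CPM (median 156) in -/- microglia, 308 to 987 CPM (median 457) in +/- microglia and 418 to 989 CPM (median 891) in +/+ microglia. The summed level of 12 microglia markers was 31883 to 60581 CPM in microglia and 410.1 to 1047 CPM in nonmicroglia libraries. On the first principal component, 1 nonmicroglia library (+/+, control chow, 5 weeks, animal 1930) and 4 microglia libraries stood more than 60 units from the centre. The 4 were animal 945 (-/-, control chow, 5 weeks), animals 981 and 1748 (-/-, cuprizone, 12 weeks) and animal 9145 (+/+, control chow, 12 weeks).

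The genes lie on 8 chromosomes, and their promoters are shown because members that move together can be read beside the letters upstream of them. Mbp was left out of the promoter search, so the counts below say nothing about it. RefSeq promoter entries on GRCm38.p6 were matched by symbol for the other 8 of the 9 genes. The 250 bases before the start were searched on both strands for ACAAAG and ACAATG, core letters of SOX sites, for CTGGCAC and CTGGTAC, core letters of MYRF sites, and for TATAAA, the core of a TATA box. Printed below, 5' to 3' on the strand of the gene with matches in capitals on whichever strand they lie, are the 5 with a match to ACAAAG or to a MYRF motif, and that of Mal, the gene that changed with the diet.
Mobp (chr9:120149492-120149741, + strand): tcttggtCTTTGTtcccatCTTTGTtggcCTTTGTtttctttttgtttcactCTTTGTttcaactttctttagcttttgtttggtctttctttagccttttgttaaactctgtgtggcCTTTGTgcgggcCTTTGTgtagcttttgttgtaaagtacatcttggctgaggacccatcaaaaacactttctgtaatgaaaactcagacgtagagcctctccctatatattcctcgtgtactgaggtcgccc
Mag (chr7:30914864-30915113, - strand): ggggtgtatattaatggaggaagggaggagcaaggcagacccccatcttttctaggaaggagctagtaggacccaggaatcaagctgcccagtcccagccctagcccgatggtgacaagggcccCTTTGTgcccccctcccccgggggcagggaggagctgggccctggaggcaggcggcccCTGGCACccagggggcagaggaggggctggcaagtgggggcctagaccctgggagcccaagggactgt
Cnp (chr11:100574689-100574938, + strand): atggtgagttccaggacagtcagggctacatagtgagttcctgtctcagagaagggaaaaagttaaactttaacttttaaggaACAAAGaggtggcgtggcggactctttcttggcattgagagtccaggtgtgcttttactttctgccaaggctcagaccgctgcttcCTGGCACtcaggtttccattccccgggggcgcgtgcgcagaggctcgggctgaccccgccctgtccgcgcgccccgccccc
Mog (chr17:37023399-37023648, - strand): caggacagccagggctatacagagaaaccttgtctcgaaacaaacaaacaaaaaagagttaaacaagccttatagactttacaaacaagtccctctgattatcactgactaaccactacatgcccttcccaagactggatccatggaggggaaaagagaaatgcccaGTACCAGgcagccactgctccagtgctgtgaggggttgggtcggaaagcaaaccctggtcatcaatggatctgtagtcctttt
Opalin (chr19:41077114-41077363, - strand): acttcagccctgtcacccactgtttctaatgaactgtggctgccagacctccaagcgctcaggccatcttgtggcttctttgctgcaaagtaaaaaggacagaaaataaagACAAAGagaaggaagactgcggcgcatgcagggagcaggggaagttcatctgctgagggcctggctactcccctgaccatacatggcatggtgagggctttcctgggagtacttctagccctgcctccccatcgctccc
Mal (chr2:127656696-127656945, - strand): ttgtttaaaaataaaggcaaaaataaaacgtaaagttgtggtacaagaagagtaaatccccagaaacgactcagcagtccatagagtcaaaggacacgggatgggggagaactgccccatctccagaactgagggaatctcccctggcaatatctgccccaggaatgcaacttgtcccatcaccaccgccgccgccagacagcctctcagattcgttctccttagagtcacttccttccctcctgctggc

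Mobp carried 6 separate matches to ACAAAG, all read on the strand opposite to the gene, between 120 and 243 bases before its start. It was the only one of 32851 RefSeq mouse promoters of the same length with 6 or more. ACAAAG occurred in 4 of the 8 matched genes (Mobp, Mag, Cnp and Opalin) and in 16.5% of the 32851 promoters. ACAATG occurred in Ermn alone among them and in 10.7% of promoters. CTGGCAC lay in Mag and Cnp and in 4.19% of promoters, and CTGGTAC in Mog and in 1.83%. TATAAA was found in none of the 8 and in 12.4% of promoters. No 2 of the printed matches overlapped. Mag has 3 entries, of which the one nearest the annotated start is printed, another overlaps it, and the last, inside the gene, held no match. These matches are letters in a window and not measured binding sites.

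In the nonmicroglia fraction the level differed widely between the 9 genes. Mbp, which encodes the basic protein that compacts the inner faces of the membrane, was the most abundant, with a mean of 2240.2 ± 1006 CPM (SD, n = 37). Mal, a proteolipid that sorts membrane to myelin, had 739 ± 342 CPM and Mag, an adhesion protein at the face next to the axon, 715 ± 377 CPM. Cnp, the phosphodiesterase that keeps channels of cytoplasm open in myelin, had 560.5 ± 320.1 CPM. Cldn11, the claudin of myelin tight junctions, had 539 ± 277 CPM, and Ermn, a cytoskeletal protein of late oligodendrocytes, 497 ± 176 CPM. Mobp, a second basic protein of compact myelin, had 453 ± 217 CPM. Mog, the surface glycoprotein of the outermost layer, had 229 ± 108 CPM and Opalin, a membrane glycoprotein of mature oligodendrocytes, 91.3 ± 55.7 CPM. Neighbours from Mal to Mobp in this order differed by less than their SDs. Mbp alone made up 28.1 to 55.7% of the counts of the 9 genes (median 35.3% over the libraries).

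The Cnp values are uncertain, because Cnp overlaps Dnajc7, a co-chaperone gene on the opposite strand, and whether strand was used in counting is not given. Dnajc7 had a median of 281 CPM in microglia and 278 CPM in nonmicroglia. The overlaps of Mbp, Mog and Ermn were with genes at a median of 0 CPM. Mobp overlaps Gm38642, a processed transcript on the same strand, for which no level is given here, so the Mobp values are uncertain as well. Mbp lies on chromosome 18, Mog on 17, Mag on 7, Mobp on 9, Cnp on 11, Cldn11 on 3, Opalin on 19, and Mal and Ermn both on 2, 58045113 to 58052864 for Ermn and 127633226 to 127656695 for Mal in GENCODE M21.

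The levels moved together across nonmicroglia libraries. Pearson's correlation of log2(CPM + 1) over the 37 libraries ranged from 0.417 to 0.858 over the 36 pairs of genes, with a median of 0.641. These libraries share diet, week and composition effects, so the correlations are a description. In microglia the same pairs ranged from -0.119 to 0.528 (median 0.296), at levels where single genes often rested on few counts.

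Whether the diet lowered the myelin transcripts was asked first in the nonmicroglia fraction. In such a pool fewer oligodendrocytes and less RNA per oligodendrocyte cannot be told apart. After 5 weeks, averaged over the genotypes, 1 of the 9 genes was called: Mal fell. Of all 16915 genes tested, 0.443% were called in that comparison, 0.278% higher and 0.166% lower. Mal had 255 to 519 CPM (median 421) in the 9 cuprizone animals and 398 to 1152 CPM (median 748) in the 9 control animals. The ranges overlapped, with 4 of the cuprizone animals below every control animal. The log2 fold change was -0.95 ± 0.17 (SE; edgeR quasi-likelihood test, Benjamini-Hochberg adjusted p = 0.000557). Within single genotypes Mal did not pass, with -1.08 ± 0.30 in +/- (adjusted p = 0.492), -0.77 ± 0.30 in +/+ (adjusted p = 0.831) and a change between these in -/- animals (adjusted p = 1). Among all genes 0.0296% were called in -/-, 0.0591% in +/- and 0.0414% in +/+ animals.

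**Figure D1:**
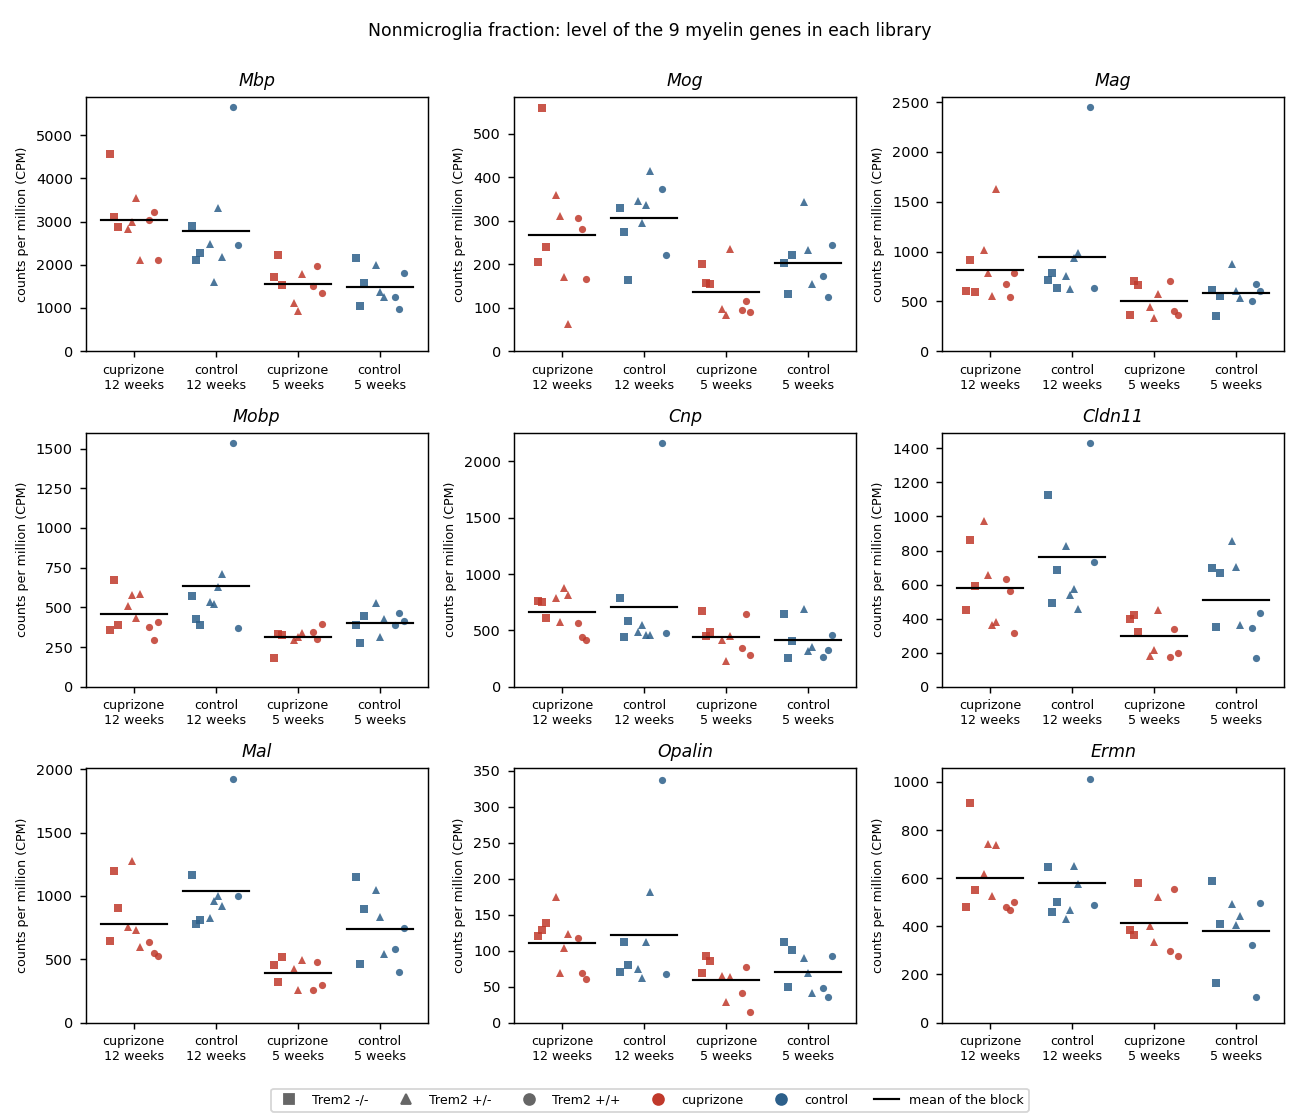
Level of each of the 9 genes in every nonmicroglia library, in CPM, by diet and week (columns) and Trem2 genotype (symbols), with the mean of each column as a line. Mal is lower on cuprizone than on control chow at 5 weeks, the 12-week columns lie above the 5-week columns for most genes, and 1 +/+ control library at 12 weeks (animal 1932, Mbp 5654 CPM) is the highest point in 8 of the 9 panels.

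The other 8 genes did not pass at 5 weeks. Cldn11 had a median of 323 CPM on cuprizone (range 178 to 452) and 432 CPM on control chow (170 to 856), a log2 difference of -0.75 ± 0.22 (adjusted p = 0.196). Mog had a median of 114 CPM on cuprizone (82.7 to 234) and 202 CPM on control chow (124 to 344), a difference of -0.62 ± 0.23 (adjusted p = 0.401). Both of these membrane proteins, with Mal and Mobp (-0.40 ± 0.18, adjusted p = 0.532), had an unadjusted p under 0.05. Mbp, Cnp and Ermn differed by 0.03 ± 0.17, 0.07 ± 0.22 and 0.09 ± 0.21, with directions that changed when single libraries were left out. The median over the 9 genes was -0.30, against 0.05 over all genes tested.

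After 12 weeks edgeR called none of the 9 genes, and neither DESeq2 nor limma called any. At an unadjusted p under 0.05 there were 3, Mobp (-0.53 ± 0.18), Mal (-0.51 ± 0.17) and Cldn11 (-0.46 ± 0.22). In this comparison 0.497% of all genes were called, 0.319% higher and 0.177% lower. Mal had 523 to 1272 CPM (median 685) in 10 cuprizone animals and 781 to 1924 CPM (median 956) in 9 control animals. Mbp had 2114 to 4556 CPM (median 3017) on cuprizone and 1598 to 5654 CPM (median 2451) on control chow, and the groups overlapped over almost their whole range. The median difference over the 9 genes was -0.19, against 0.04 over all genes.

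At 12 weeks 1 control animal stood far above the rest, number 1932, in the group of 2 +/+ animals on control chow. Animal 1932 was male and the other animal of the group female, and the part of sex in its levels was not tested. Its nonmicroglia library held 16868 CPM over the 9 genes, and the other 36 held at most 9125 CPM. Mag stood at 2447 CPM in it, Cnp at 2160 CPM and Mobp at 1533 CPM, against 630.3, 478 and 373 CPM in the only other animal of its group, number 9145. Its sum over 34 further mature oligodendrocyte genes was also the highest, at 54774 CPM. Its 11 endothelial markers summed to 1714 CPM, the lowest of the 9 control animals at 12 weeks (median 3531), and their part in its myelin levels was not tested. In +/+ animals at 12 weeks all 9 differences were negative, from -1.42 (Mobp, adjusted p = 0.0621) to -0.15 (Mog), and edgeR called none of them. DESeq2 called 2, and edgeR called 4 when animal 9145 was left out and the group rested on animal 1932. Among all genes 0.0828% were called there. In -/- and +/- animals at 12 weeks, where 0.0355% and 0.142% of all genes were called, the median differences were 0.17 and 0.06, and none of the 9 had an unadjusted p under 0.05. Without animal 1932 the differences averaged over genotypes of Mbp, Mag, Cnp, Opalin and Ermn were above 0. In that order they were 0.32, 0.11, 0.27, 0.29 and 0.16. Those of Mal, Cldn11, Mobp and Mog stayed below 0, at -0.35, -0.32, -0.07 and -0.05. Without animal 9145 Mobp was called (-0.78, adjusted p = 0.00618).

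Other lists of the oligodendrocyte lineage and of neighbouring cells show what moved beside these genes. Of 34 further mature oligodendrocyte genes, 1 rose and 1 fell at 5 weeks: Trf, the transferrin that carries iron, by 0.80 ± 0.15 (adjusted p = 0.000611), and Ppp1r14a, an inhibitor of protein phosphatase, by -1.48 ± 0.30 (adjusted p = 0.00386). At 12 weeks Gjc3, a gap junction gene, rose (1.24 ± 0.17, adjusted p = 5.87e-07). Of 12 genes of myelin lipid synthesis, Acsbg1, which activates long-chain fatty acids, fell at 5 weeks (-0.83 ± 0.21, adjusted p = 0.0407) and none was called at 12 weeks. None of 13 transcription factors of myelination passed at either time. The genes with the smallest p among them were Olig2 at 5 weeks (0.77 ± 0.38, adjusted p = 0.668) and Olig1 at 12 weeks (0.60 ± 0.17, adjusted p = 0.0937). None of 10 tested genes of newly formed oligodendrocytes and none of 10 precursor genes was called at either time. At 5 weeks Ptprz1, a phosphatase receptor of precursors, came nearest (-0.66 ± 0.17, adjusted p = 0.0614).

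Astrocyte markers moved in the same comparisons. Their sum over 14 genes was 4852 to 7044 CPM in cuprizone animals and 7372 to 10034 CPM in control animals at 5 weeks, ranges that did not overlap. At 12 weeks it was 3445 to 5746 CPM on cuprizone and 4775 to 9541 CPM on control chow. Cldn10, a claudin of astrocytes, fell at both times (-0.93 ± 0.22 and -0.92 ± 0.22, adjusted p = 0.02 and 0.0167). Slc1a2, the main glutamate transporter, fell at 12 weeks (-0.72 ± 0.15, adjusted p = 0.00412), as did Ntsr2, a neurotensin receptor (-1.51 ± 0.24, adjusted p = 1.62e-05). The part of these shifts in the levels of the myelin genes, which are shares of one pool, was not tested.

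More of the 9 genes were called between the weeks than between the diets in the nonmicroglia fraction. On cuprizone 5 of the 9 genes were higher at 12 weeks than at 5 weeks: Mog, Mal, Cldn11, Mbp and Opalin. Of all genes tested 0.964% were called, 0.29% higher and 0.674% lower. All 9 differences were positive and had an unadjusted p under 0.05, with a median of 0.99, against -0.04 over all genes. Mbp had 2114 to 4556 CPM (median 3017) in 10 animals at 12 weeks and 929 to 2221 CPM (median 1530.1) in 9 animals at 5 weeks, a log2 difference of 1.03 ± 0.17 (adjusted p = 0.00032). Mal had 523 to 1272 CPM at 12 weeks and 255 to 519 CPM at 5 weeks, with no overlap (1.04 ± 0.17, adjusted p = 0.000219).

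Mog had a median of 261 CPM at 12 weeks (62.6 to 559.7) and 114 CPM at 5 weeks (82.7 to 234), a difference of 1.07 ± 0.23 (adjusted p = 0.00854). The lowest Mog level of all nonmicroglia libraries was a 12-week one, 62.6 CPM in +/- animal 9469, whose Mag level of 1631 CPM was the highest of its diet. On the second principal component the libraries of animal 9469 stood farthest from the centre in both fractions, at 125 in nonmicroglia and 110 in microglia. What set this animal apart, and its part in these levels, was not tested. Cldn11 had a median of 577 CPM at 12 weeks (316 to 971) and 323 CPM at 5 weeks (178 to 452), a difference of 1.04 ± 0.22 (adjusted p = 0.00988). Opalin had a median of 119 CPM at 12 weeks (60.2 to 174) and 64.1 CPM at 5 weeks (14.4 to 92.9), a difference of 0.99 ± 0.26 (adjusted p = 0.0355). The Opalin call had the highest adjusted p of the 5 and was lost in 11 of the 37 fits that left out 1 library. Without the sex term the calls of Cldn11 (0.98, adjusted p = 0.0546) and Opalin (0.92, adjusted p = 0.0953) were lost, and 3 of the 9 genes were called. Mag, Mobp, Cnp and Ermn differed by 0.69, 0.57, 0.61 and 0.60 without passing (adjusted p = 0.0996, 0.0898, 0.214 and 0.181).

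**Figure D2:**
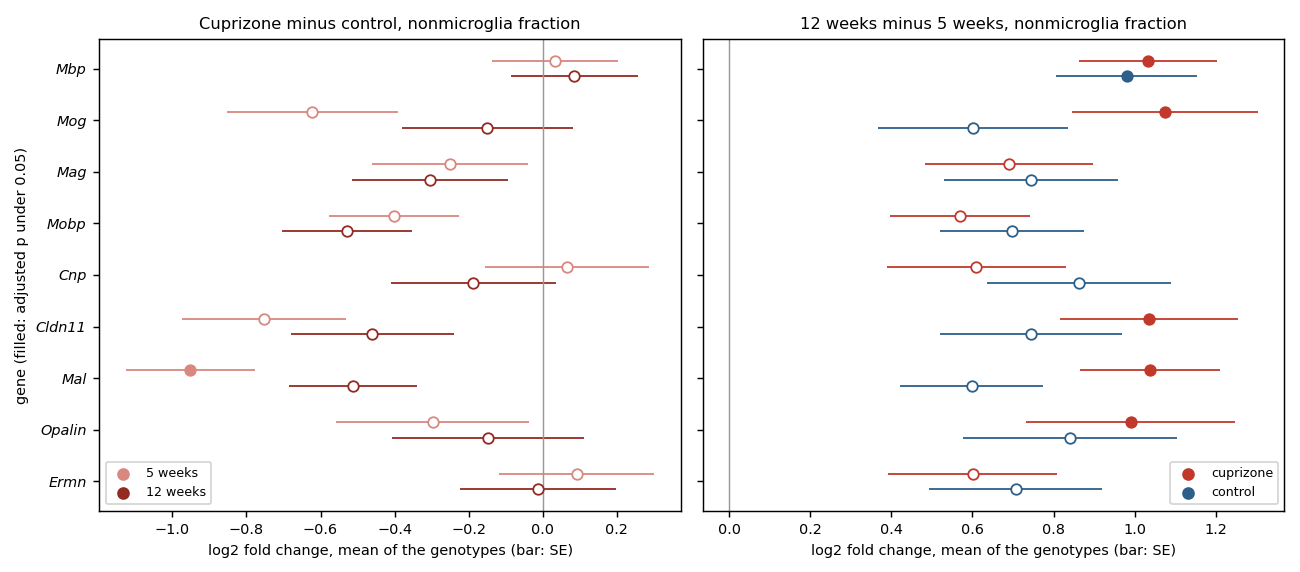
Log2 fold change of each gene in the nonmicroglia fraction, averaged over the 3 genotypes, for cuprizone minus control at each week (left) and for 12 minus 5 weeks on each diet (right). Bars are standard errors and filled points passed at an adjusted p under 0.05. Mal at 5 weeks is the only filled point on the left, and all 18 points on the right lie between 0.57 and 1.07.

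On control chow 1 of the 9 genes was called, again with all 9 positive and with an unadjusted p under 0.05. Mbp had 1598 to 5654 CPM (median 2451) in 9 animals at 12 weeks and 970.2 to 2149 CPM (median 1361) in 9 animals at 5 weeks, a difference of 0.98 ± 0.17 (adjusted p = 0.00364). Of all genes tested 0.236% were called, 0.106% higher and 0.13% lower. Without animal 1932 the Mbp difference was 0.73 (adjusted p = 0.057) and no gene of the 9 was called. The other 8 differences ran from 0.60 (Mal) to 0.86 (Cnp), and the median over the 9 genes was 0.74. DESeq2 called 5 of the 9.

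The difference between 12 and 5 weeks did not itself differ detectably between the diets. None of the 9 interactions was called by edgeR, DESeq2 or limma and none had an unadjusted p under 0.05, while 0.00591% of all genes were called. They ranged from -0.25 (Cnp) to 0.47 (Mog), and that of Mal was 0.44 ± 0.25 (unadjusted p = 0.0783, adjusted p = 1). The animals of the 2 times are different mice that also differ in time on the study, and any batch of sorting or sequencing tied to the week is not given in the sources used here, so week and such a batch cannot be told apart. RNA integrity numbers were 7.3 to 8.8 for the 9 cuprizone libraries at 5 weeks and were given for 2 of 10 at 12 weeks (8.5 and 9.2).

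Several lists moved beside the myelin genes between the weeks. On cuprizone 9 of the 34 further mature oligodendrocyte genes were higher at 12 weeks and none was lower, with a list median of 0.69. Tspan2, a tetraspanin, was higher by 1.16 ± 0.20 (adjusted p = 0.000219), Ppp1r14a by 1.34 ± 0.29 (adjusted p = 0.00956), Tppp, which promotes tubulin polymerization, by 0.98 ± 0.17 (adjusted p = 0.00032), and Tmem88b by 0.98 ± 0.17 (adjusted p = 0.000544). Ugt8a, which makes the galactolipid of myelin, was higher by 1.06 ± 0.23 (adjusted p = 0.00826). On control chow 3 of the 34 were higher: Apod (0.88 ± 0.15), Tmem88b (0.84 ± 0.18) and Trf (0.71 ± 0.15). Also called on control chow, both lower at 12 weeks, were Rgs5 of 8 mural markers (-1.03 ± 0.18, adjusted p = 0.00103) and C1ql1 of 10 precursor genes (-2.82 ± 0.65, adjusted p = 0.0308). Of 9 neuronal markers 1 was called on cuprizone, the noncoding RNA Meg3, which was lower at 12 weeks (-2.12 ± 0.36, adjusted p = 0.00275). The sum of the 9 was 452 to 1922 CPM at 12 weeks and 1143 to 8272 CPM at 5 weeks. The astrocyte genes Ntsr2 (-1.16 ± 0.23, adjusted p = 0.00229) and Slc1a2 (-0.59 ± 0.15, adjusted p = 0.0265) were lower on cuprizone as well. The part of these other cells in the difference of the myelin genes between the weeks was not tested.

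No difference between Trem2 genotypes was detected in the myelin transcripts of the nonmicroglia fraction. In the 4 comparisons of -/- with +/+ animals, the 4 of +/- with +/+ animals, and the interaction of diet with -/- against +/+ at each week, edgeR, DESeq2 and limma called none of the 9 genes. Of all 16915 genes edgeR called 0.0% in each of these 10 comparisons, while DESeq2 called 2 to 16 genes and limma 0 to 4. At an unadjusted p under 0.05 there were 0 to 3 of the 9 in each of the 8 comparisons of genotypes. On cuprizone at 12 weeks Mbp had 4556, 3112 and 2868 CPM in -/- animals, against 3039, 3234 and 2114 CPM in +/+ animals. All 9 differences were positive there, from 0.13 (Mag) to 0.70 (Mal), each with an adjusted p of 1. The interaction at 12 weeks was positive for all 9 genes, with a median of 1.14 and 6 of 9 at an unadjusted p under 0.05, and it rests on the same pair of +/+ controls that holds animal 1932.

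In the microglia fraction the 9 genes were present at a few percent of the nonmicroglia level. All 9 were lower in microglia than in nonmicroglia on control chow, on cuprizone for 5 weeks and on cuprizone for 12 weeks. Of 18408 genes tested, 47.8%, 44.3% and 42.7% were called in these 3 comparisons. Those called lower were 27.6%, 27.5% and 27.0%, and those called higher 20.2%, 16.8% and 15.8%. On control chow the log2 differences ran from -6.19 ± 0.46 for Opalin to -3.88 ± 0.26 for Cnp (adjusted p = 1.27e-20 and 1.36e-19). On cuprizone they ran from -5.63 ± 0.39 (Ermn) to -3.43 ± 0.25 (Mbp) at 5 weeks and from -6.29 ± 0.42 (Mog) to -3.88 ± 0.33 (Cnp) at 12 weeks. The medians over all genes tested were -0.31, -0.33 and -0.39 on control chow and on cuprizone for 5 and 12 weeks.

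**Figure D3:**
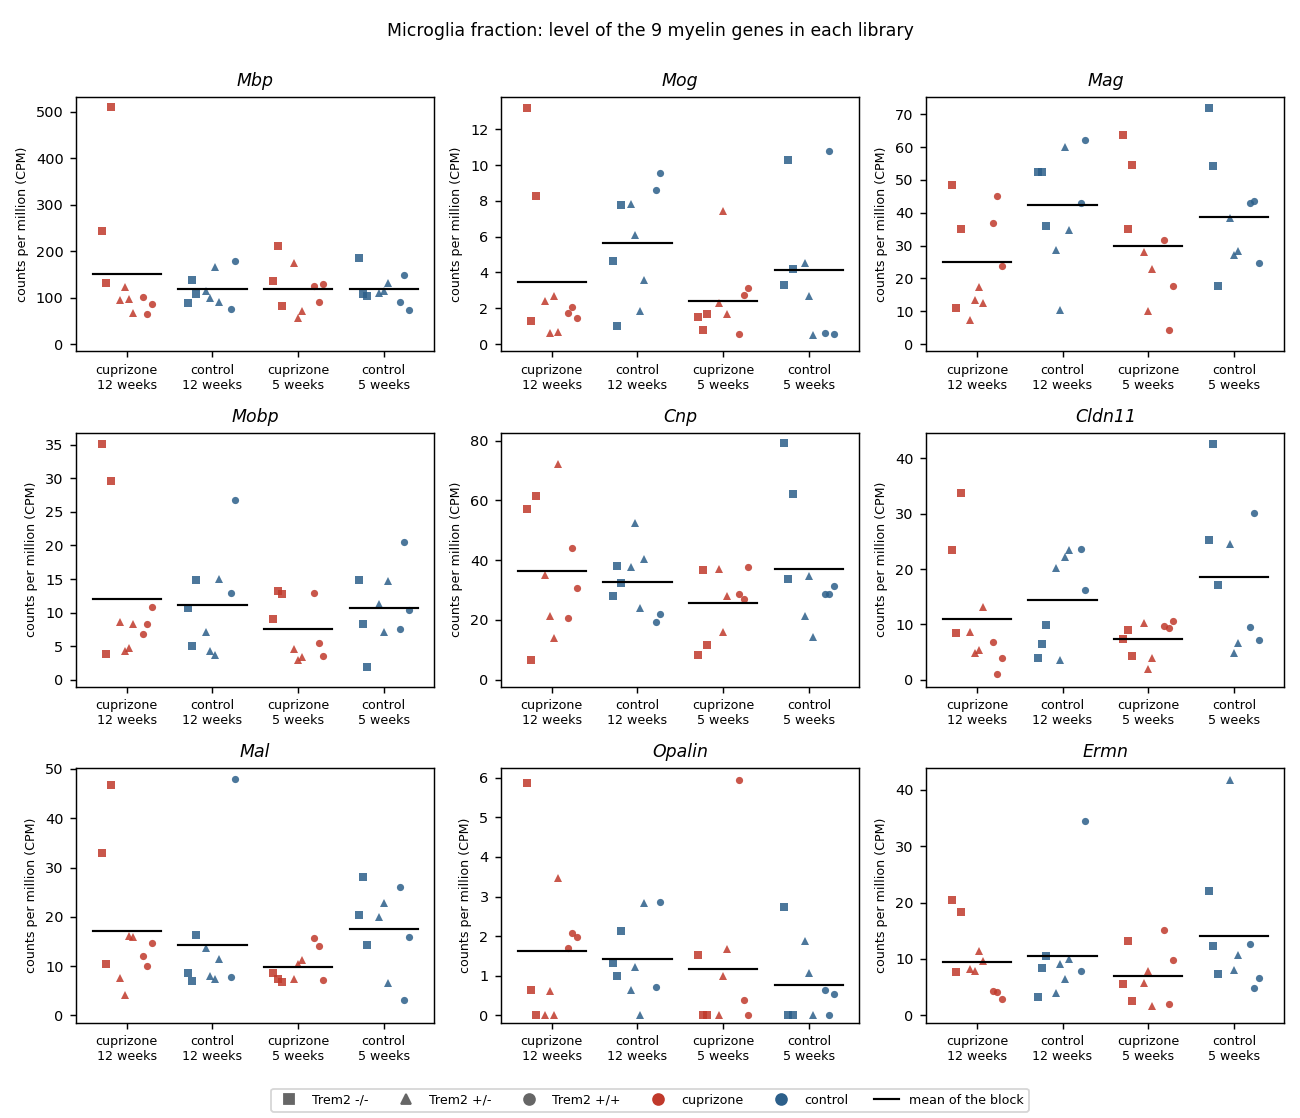
Level of each of the 9 genes in every microglia library, in CPM, by diet and week (columns) and Trem2 genotype (symbols), with the mean of each column as a line. The scales are far smaller than in the nonmicroglia fraction, the columns overlap, and the highest Mbp library (510 CPM) is a -/- animal on cuprizone for 12 weeks.

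Mbp was again the most abundant, with 56.6 to 510 CPM (median 109) over the 37 microglia libraries. Mag had a median of 34.8 CPM and Cnp of 30.6 CPM. Mal had 11.4 CPM, Cldn11 9.39 CPM, Mobp 8.37 CPM, Ermn 8.12 CPM and Mog 2.69 CPM. Opalin was listed at 0 in 12 of the 37 libraries and had at most 11 counts in any. A count of 0 allows up to 3 counts, or 1.17 to 2.77 CPM at the depths of those 12 libraries. Mog rested on 1 to 20 counts a library.

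The residual was not the same share for each gene. As a percent of the nonmicroglia level of the same animal, the median over 37 animals was 7.29% for Cnp, 5.37% for Mbp and 4.96% for Mag. It was 1.97% for Mobp, 1.91% for Mal, 1.85% for Cldn11, 1.81% for Ermn, 1.16% for Mog and 0.88% for Opalin. Mbp thus made up a median of 50.8% of the counts of the 9 genes in microglia and 35.3% in nonmicroglia, while Mal made up 5.82% and 12.3%. The sums of other lists stood at shares that differed widely. Their medians were 4.79% for 14 astrocyte genes, 5.71% for 11 endothelial genes, 4.38% for 8 mural genes, 6.06% for 9 neuronal genes, 5.62% for the 34 further mature oligodendrocyte genes, 3.09% for 10 precursor genes, 3.83% for 5 erythroid genes and 2.1% for 6 ependymal and choroid genes. Other lists stood higher, at 19.0% for 12 genes of myelin lipid synthesis, 22.6% for 13 transcription factors of myelination, 59.7% for 11 genes of newly formed oligodendrocytes, 68.8% for 6 lymphocyte genes and 227% for 6 genes of peripheral myelin. The lymphocyte and erythroid sums were low in microglia libraries, at 0 to 25.3 CPM and 0 to 27.9 CPM. Highest were 12 microglia, 7 border macrophage and 6 neutrophil genes, at 7659%, 4805% and 5582%. The 9 myelin genes together stood at 3.9% (1.19 to 10.8%). Carry-over of whole cells or free RNA, uptake of myelin with its transcripts, and any other source cannot be told apart from these levels.

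**Figure D4:**
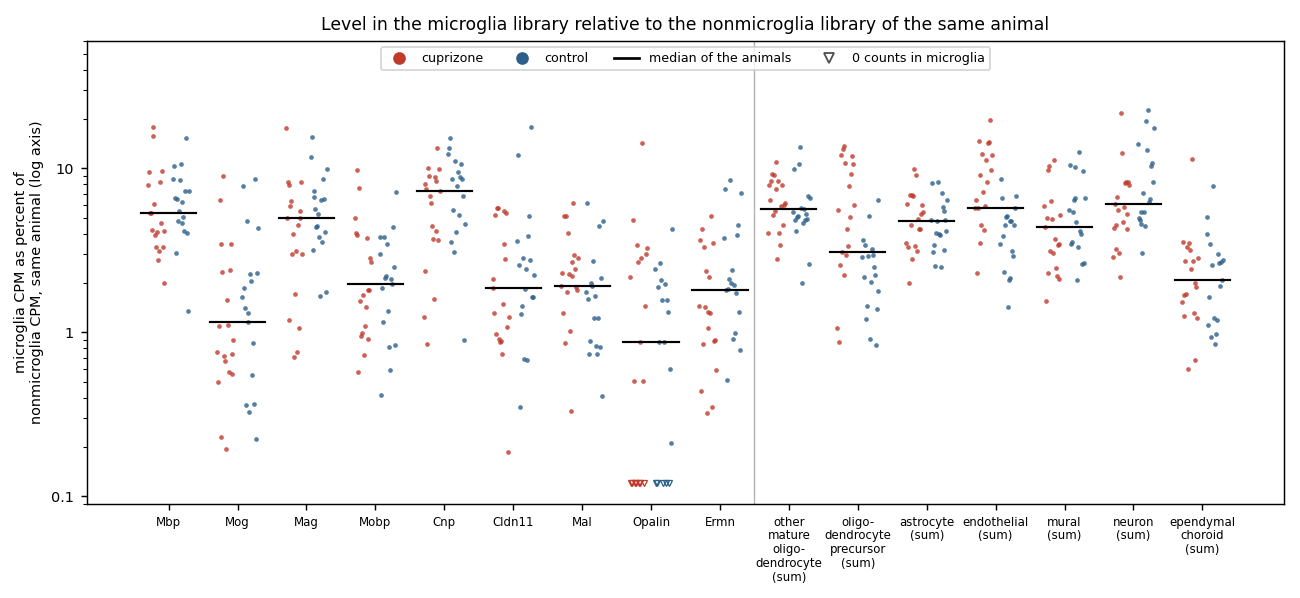
Level in each microglia library as a percent of the nonmicroglia library of the same animal (log axis), for the 9 genes and for sums of markers of other cell types, with cuprizone and control animals apart and the median as a line. Opalin, at 0 in 12 microglia libraries, is drawn with open triangles at the foot of the axis. Medians run from 0.88% (Opalin) to 7.29% (Cnp) among the 9 genes and from 2.1 to 6.06% among the marker sums drawn.

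The levels of a gene in the 2 fractions of an animal were set side by side. Within groups, Pearson's correlation between the 2 fractions of an animal, in log2(CPM + 1), ranged over the 9 genes from -0.285 (Ermn) to 0.0792 (Opalin), over 37 animals. Animal 1932 is an example: its nonmicroglia library had the highest level of Mbp (5654 CPM), and its microglia library had 76.0 CPM, or 1.34%, the lowest percentage of all animals. These correlations are given as a description.

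Cuprizone changed none of the 9 genes detectably in microglia. Averaged over genotypes, edgeR, DESeq2 and limma called 0 of 9 at 5 weeks and 0 of 9 at 12 weeks, with 1 of 9 at an unadjusted p under 0.05 at each time. Of 14087 genes tested, 1.6% and 2.95% were called in these comparisons. Mbp had a median of 125 CPM on cuprizone (56.6 to 211) and 109 CPM on control chow (73.1 to 186) at 5 weeks, and of 99.6 CPM (64.4 to 510) and 109 CPM (76.0 to 179) at 12 weeks. The gene with the smallest p at 5 weeks was Cldn11, at 1.99 to 10.7 CPM on cuprizone and 4.87 to 42.6 CPM on control chow (-1.23 ± 0.60, adjusted p = 0.41). At 12 weeks it was Mag, at 7.20 to 48.3 CPM on cuprizone and 10.4 to 62.3 CPM on control chow (-0.81 ± 0.37, adjusted p = 0.268). Between 12 and 5 weeks 0 of 9 were called on either diet, with 0 at an unadjusted p under 0.05, while 0.341% of all genes were called on cuprizone and 0.0071% on control chow. The gap between the fractions did not move detectably with the diet either. In that interaction, fitted at each week, edgeR, DESeq2 and limma called 0 of 9, with 1 and 0 of the 9 at an unadjusted p under 0.05, and 0.429% and 0.799% of all genes were called.

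One comparison of genotypes in microglia gave a call. On cuprizone for 12 weeks, Mbp was higher in -/- than in +/+ microglia. It had 131, 245 and 510 CPM in the -/- animals 1748, 981 and 9542, against 101, 64.4 and 87.3 CPM in the +/+ animals 1746, 3917 and 8043. The groups did not overlap, and the 4 +/- animals had 66.5 to 123 CPM. The log2 difference was 1.72 ± 0.41 (adjusted p = 0.0311), in a comparison in which 0.44% of all genes were called, 0.114% higher and 0.327% lower. The call was lost without -/- animal 9542 (0.96, adjusted p = 0.356) and without any of the 3 +/+ animals (1.81, 1.55 and 1.82, adjusted p = 0.0853, 0.234 and 0.0972, without animals 1746, 3917 and 8043). RNA integrity numbers of these microglia libraries were 7.3 (animal 981), 7.4 (1746) and 8.1 (8043), and none was given for animals 1748, 9542 and 3917. In microglia on cuprizone for 5 weeks they were 8.7 to 9.9 where given. The part of RNA integrity in the Mbp difference was not tested.

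The other 8 genes did not pass there, and 2 of the 3 -/- libraries carried the higher levels. Cldn11 had 8.41, 23.4 and 33.8 CPM in -/- animals 1748, 981 and 9542, against 6.85, 1.05 and 3.94 CPM in +/+ animals (2.35 ± 1.09, adjusted p = 0.464). Ermn had 7.76, 20.5 and 18.4 CPM in -/- animals, against 4.28, 4.19 and 2.96 CPM in +/+ animals (1.96 ± 1.15, adjusted p = 0.565). Mag had 48.3 and 34.9 CPM in -/- animals 981 and 9542 and 17 counts in 1748, against 36.8, 45.0 and 23.7 CPM in +/+ animals (-0.23 ± 0.64, adjusted p = 0.959). For Mag and Cnp the difference took either direction when a single -/- library was left out. Over the 9 genes the sum was 180.5, 481 and 743 CPM in -/- animals 1748, 981 and 9542, and 178 to 192 CPM in +/+ animals.

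Markers of other cells moved with these libraries. The sum of 6 ependymal and choroid genes was 291, 1098 and 1299 CPM in -/- animals 1748, 981 and 9542, against 427, 212 and 454 CPM in +/+ animals. The 34 further mature oligodendrocyte genes summed to 1181, 2631 and 2481 CPM in the same -/- animals and 1532 to 1806 CPM in +/+ animals, and 14 astrocyte genes to 176, 463 and 317 CPM and 182 to 267 CPM. Endothelial genes were the other way round, at 114, 223 and 148 CPM in -/- animals and 338 to 598 CPM in +/+ animals. Animals 981 and 1748 are 2 of the libraries that stood apart on the first principal component; without such libraries 9542 was the only -/- animal left, and the Mbp difference was 2.56 (adjusted p = 0.00317), on the assumption that it varies as the other groups do. Mbp in animal 9542 was at 17.8% of its nonmicroglia level, the highest percentage of all animals, and in animals 981 and 1748 at 5.37% and 4.2%. The part of these other cells in the Mbp difference was not tested.

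**Figure D5:**
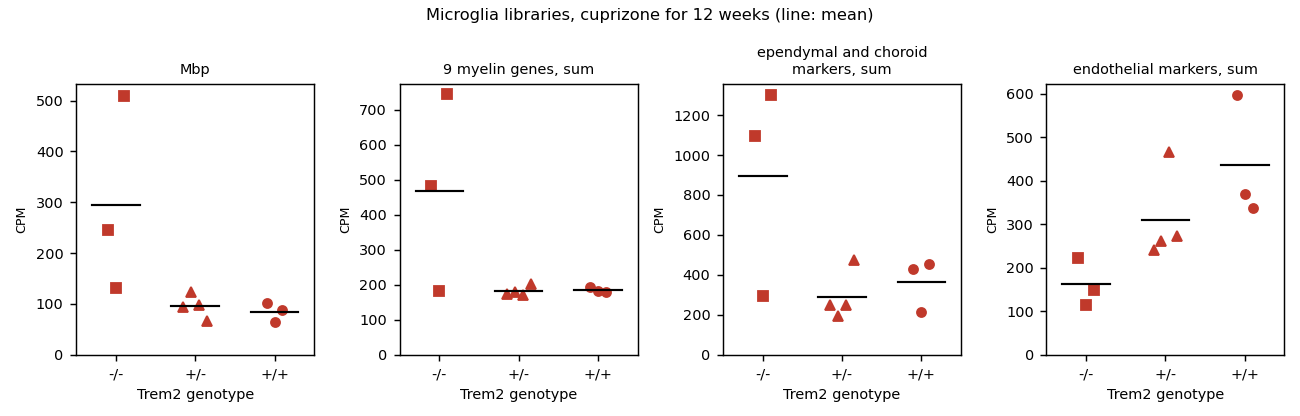
Microglia libraries of animals on cuprizone for 12 weeks, by Trem2 genotype: Mbp, the sum of the 9 myelin genes, the sum of 6 ependymal and choroid markers and the sum of 11 endothelial markers, each in CPM, with 1 point per animal and the mean as a line. In the first 3 panels -/- animals 981 and 9542 lie above the others, and in the last the -/- animals lie below the +/+ animals.

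Elsewhere in microglia genotype gave no call among the 9 genes. In the other 7 comparisons of -/- or +/- with +/+ animals edgeR, DESeq2 and limma called 0 of 9, with 0 or 1 of the 9 at an unadjusted p under 0.05. Of all genes 0.0781% were called for -/- on cuprizone at 5 weeks, 0.0071% and 0.0213% for -/- on control chow at 5 and 12 weeks, 0.121% for +/- on cuprizone at 12 weeks and 0.0% in the other 3. The Mbp difference between -/- and +/+ at 12 weeks was 1.85 ± 0.60 larger on cuprizone than on control chow, which did not pass (adjusted p = 0.229). DESeq2 called 1 of the 9 genes in that interaction and limma none, and 0.0284% of all genes were called. In +/- microglia on cuprizone for 12 weeks Mbp differed from +/+ by 0.22 ± 0.38 (adjusted p = 0.943).

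The genes whose pattern over libraries was most like the 9 were found by Pearson's correlation with their mean standardized log2(CPM + 1), among protein-coding genes with a mean of at least 10 CPM. In nonmicroglia, among 9485 genes over 37 libraries, they were, from 0.843 down to 0.79, Tmem88b, Pdlim2, Scd2, Tuba1a, Tubb4a, Efnb3, Qdpr, Elavl3, Gprc5b and Ugt8a. Of these, Tmem88b, Efnb3, Qdpr and Ugt8a stand on the oligodendrocyte lists used here. In microglia, among 7900 genes, they included Stmn4 (0.739), Ttr (0.733), Enpp2 (0.707), Tmem88b (0.703), S100b (0.699), Unc5b (0.693), Ddr1 (0.68), Ski (0.679) and Rnf6 (0.678). Ttr, the transthyretin of choroid plexus, and Enpp2, which choroid plexus and oligodendrocytes share, are among them.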

How the data were processed

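The authors deposited a table of whole-number counts of 3' tags per gene with no normalization. Libraries came from sorted whole-brain cells and a low-input kit, per the labels' protocols. Tools listed in the submitters' processing notes are STAR, MultiQC, FastQC 0.11.5 and R 3.4.3, with the build GRCm38.p6. How reads were assigned to genes, with which annotation, and whether strand or UMIs were used is not given there. Coordinates were matched by Ensembl identifier to GENCODE M21.

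The 9 genes, the 16 other lists (170 genes, from general knowledge) and the tests were chosen with earlier results of these data known. Each fraction was fitted apart with edgeR 4.0.16 in R 4.3.3: filterByExpr (minimum count 10), TMM, robust quasi-likelihood, 12 group means and sex, two-sided, Benjamini-Hochberg over all genes of a comparison, calls under 0.05. The fit of both fractions had 24 group means and sex. Standard errors come from the F statistic. Alternatives were DESeq2 1.42.0 (size factors, Wald test), limma 3.58.1 voom with quality weights, no filter, no sex term, leaving out each animal and an animal block. Added after the data were seen: leaving out libraries beyond 60 on the first principal component, and limma voom for leaving out animals in the joint fit. Fits without a library kept the genes and dispersion trend of the full fit.

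No pair of libraries was a copy (lowest chi-square per degree of freedom 8.96 in microglia and 12.2 in nonmicroglia). The block pairs the microglia and nonmicroglia libraries by the animal number the labels give: the correlation of their deviations from group means over 9031 genes had a median of 0.0195 (-0.041 to 0.114, over 0.1 in 3 animals). Named genes from the lists are up to 4 called genes per list with the largest change in the diet comparisons, or else the smallest p. The same rule was used between the weeks. Some genes that the rules name are not reported here. The code was tested on simulated counts. Replicates are separate animals, and where a fit left 1 library in a group, that library was taken to vary as the other groups do. Limits at a count of 0 cover counting error only.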

Additional observations from a re-analysis of the deposited data

Results flagged for a closer look

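One value stood apart from the rest of its group. Cldn11 in microglia of +/- animals on control chow for 12 weeks was at 3.66 CPM in animal 944, while the other 3 animals of the group had 20.1 to 23.5 CPM, so that the gap below was 0.832 of the whole range. Of the groups in this study, 4 of 24 hold 4 animals, and the 9 genes gave 36 such sets of values. This set is the only one of them with a value so far from the others. About 1 in 20 such sets would hold a value flagged in this way by chance, and 1 of the 36 is not more than that share.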

How the results depend on the processing

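With the animal as a replicate block, pairing the 2 fractions, 9, 9 and 9 of the 9 genes were lower in microglia on control chow and on cuprizone for 5 and 12 weeks, and 0 and 0 interactions of diet and fraction were called. The Mal call at 5 weeks passed under every alternative run, at -1.04 to -0.82 when single libraries were left out. Without the filter on low counts the number of the 9 genes called was 1 for cuprizone in +/- nonmicroglia at 5 weeks, 4 in +/+ at 12 weeks, 2 averaged over genotypes at 5 weeks, 1 for +/- against +/+ on control chow at 12 weeks, 8 between weeks on cuprizone and 7 on control chow. Without the sex term it was 1 in +/+ at 12 weeks and 3 between weeks on cuprizone (Cldn11 and Opalin lost). DESeq2's Wald test gave 2 in +/+ at 12 weeks, 5 between weeks on control chow and 1 for the interaction of diet with -/- in microglia at 12 weeks, and DESeq2 size factors gave 1 in +/+ at 12 weeks. Without the libraries beyond 60 on the first principal component 1 gene was called for cuprizone in -/- microglia at 12 weeks. Directions reversed in nonmicroglia at 5 weeks for Mbp with limma (-0.0013) and without those libraries (-0.0186) and for Ermn without them (-0.0319), and in -/- against +/+ microglia on cuprizone at 12 weeks for Mag without them (0.133) and for Opalin without the sex term (0.0557). The cause was not tested.

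Leaving out 1 library at a time, the number called ranged from 0 to 4 in +/+ nonmicroglia on cuprizone at 12 weeks, 0 to 1 averaged over genotypes, 0 to 2 for -/- and 0 to 3 for +/- against +/+ on control chow at 12 weeks, 0 to 2 for the interaction of diet with -/- at 12 weeks, 0 to 4 between weeks on control chow, and 0 to 1 for -/- against +/+ microglia on cuprizone at 12 weeks. The log2 change with diet at 5 weeks ranged from -0.0595 to 0.1501 for Mbp, -0.0636 to 0.2413 for Cnp and -0.0319 to 0.2808 for Ermn. At 12 weeks it ranged from -0.0881 to 0.3246 for Mbp, -0.548 to 0.1122 for Mag, -0.4413 to 0.274 for Cnp, -0.3947 to 0.2878 for Opalin and -0.1526 to 0.1649 for Ermn. For -/- against +/+ microglia it ranged from -0.5763 to 0.1996 for Mag, -0.1277 to 0.7601 for Cnp and -2.5819 to 0.3277 for Opalin.

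Over all genes, edgeR called 75 for diet at 5 weeks in nonmicroglia, against 148 with DESeq2 and 118 with limma, and 84 at 12 weeks, against 189 with DESeq2. Between weeks it called 163 on cuprizone, against 374 with DESeq2, 453 with limma and 264 unfiltered, and 40 on control chow, against 221, 43 and 150. For -/- against +/+ microglia on cuprizone at 12 weeks it called 62, against 218 with DESeq2, 104 with limma, 142 unfiltered and 11 without the libraries that stood apart. For diet in microglia it called 226 at 5 weeks and 415 at 12 weeks, against 409 and 754 with DESeq2. Depth limits the microglia values most: Opalin and Mog rest on at most 11 and 20 counts a library.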
